A study of Homo sapiens with 10 samples.

Results

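Aldehyde dehydrogenases are enzymes that oxidize aldehydes to carboxylic acids, most of them with NAD+ or NADP+. 9 genes of this family were examined in the human pancreatic neuroendocrine tumor cell line QGP-1: ALDH1A1, ALDH1A3, ALDH1B1, ALDH2, ALDH3A2, ALDH4A1, ALDH6A1, ALDH7A1 and ALDH9A1. They were found by gene name in both expression tables, each of which lists 35606 genes. The tables hold 19 genes of the human family, and the other 10 are described further on. A gene was tested where its mean was at least 1 CPM (reads of a gene scaled to the size of the library) over the samples of its table, which left 8 of the 9 genes. ALDH1A3 was set aside. The listed gene nearest above this limit was ALDH2, with table means of 5.24 and 5.42 CPM.

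RNA-seq was done in 10 samples of QGP-1 (QGP1 in the labels), 2 in each of 5 groups. In the first table, cells carried CRISPR interference, in which a guide RNA brings a nuclease-dead Cas9 joined to the KRAB repressor to the start of a gene, with the control guide sgNC or the guide sgPIKFYVE_1 against PIKFYVE, the kinase that makes the lipid PI(3,5)P2 on endosomes and lysosomes. Both groups carry the stable repressor and were selected, and the knockdown rests on a single guide. In the second table, cells received DMSO, 1 µM apilimod, an inhibitor of the PIKfyve kinase, or 100 nM Torin1, an inhibitor of the mTOR kinase. The labels give 24 h of exposure to either drug. The figure legends of the study give a shorter exposure, so the time behind these values is uncertain. No source used here says that the replicates were separate cultures, so the p-values measure the spread between these samples, which may be technical. The 2 tables were normalized separately, and no test was made across them.

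The aldehyde each enzyme removes sets its place in metabolism. ALDH1A1 and ALDH1A3 oxidize retinal to retinoic acid, and ALDH1A1 activity is widely used to mark stem-like tumor cells. ALDH1B1 and ALDH2 are closely related mitochondrial enzymes that clear acetaldehyde and aldehydes from lipid peroxidation. ALDH3A2 handles long-chain fatty aldehydes at the endoplasmic reticulum and peroxisomes. ALDH4A1, ALDH6A1 and ALDH7A1 work in amino acid breakdown, on proline, valine and lysine respectively, and ALDH9A1 makes the butyrobetaine needed for carnitine.

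ALDH1A1, ALDH1B1 and ALDH6A1 passed the test both in the knockdown and with Torin1. ALDH1A1 and ALDH1B1 rose in the first and fell in the second, and ALDH6A1 rose in both. The sequences before the transcription starts of these genes are shown for that reason. The sequences are from RefSeq (GRCh38.p14), where 8 of the 9 genes had an entry. They run 5′ to 3′ on the strand of the gene, from 250 bases before the start to the last base before an exon of GENCODE release 29. The stretch for ALDH1A1 is chr9:72953057-72953303 on the reverse strand, that for ALDH1B1 is chr9:38392452-38392663 on the forward strand, and that for ALDH6A1 is chr14:74084494-74084703 on the reverse strand. Capitals mark CCAAT, the letters bound by NF-Y, and GGGCGG, the letters bound by Sp factors, on either strand, so that a match on the opposite strand reads ATTGG or CCGCCC.
ALDH1A1: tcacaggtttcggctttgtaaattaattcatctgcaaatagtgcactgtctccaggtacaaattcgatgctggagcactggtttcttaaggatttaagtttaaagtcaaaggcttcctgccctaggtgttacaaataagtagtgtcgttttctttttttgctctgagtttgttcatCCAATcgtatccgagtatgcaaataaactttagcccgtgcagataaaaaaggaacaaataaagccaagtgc
ALDH1B1: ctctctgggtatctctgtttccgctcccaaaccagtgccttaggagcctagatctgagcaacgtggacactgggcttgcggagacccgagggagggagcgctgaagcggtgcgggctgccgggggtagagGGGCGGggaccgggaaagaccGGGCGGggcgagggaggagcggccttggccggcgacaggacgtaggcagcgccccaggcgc
ALDH6A1: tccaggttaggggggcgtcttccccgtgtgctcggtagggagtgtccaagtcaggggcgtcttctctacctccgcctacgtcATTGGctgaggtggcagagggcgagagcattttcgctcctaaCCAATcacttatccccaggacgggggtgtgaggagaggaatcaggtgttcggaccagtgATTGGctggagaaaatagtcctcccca

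The window of ALDH1A1 is poor in G and C, at 38.4% over its 250 bases, and 10.1% of all 35116 promoters of the same length have less. That of ALDH1B1 is rich, at 70.4%, above 80.1% of promoters. That of ALDH6A1, at 59.6%, lies near the median of 58%. ALDH1A1 has 1 CCAAT match, from -74 to -70 before the start. ALDH6A1 has 4, the nearest to the start from -40 to -36, beyond the end of the stretch shown. ALDH1B1 has GGGCGG from -120 to -115 and from -99 to -94 and a CCAAT match on the opposite strand from -26 to -22, also beyond the stretch shown.

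Over the 8 genes with an entry, which have 10 windows as ALDH3A2 and ALDH4A1 have 2 each, CCAAT was found in 6 of 10 windows and in 32.0% of all promoters, and GGGCGG in 6 of 10 and in 42.6%. The E-box letters CACGTG were found in 1 of 10 windows, at ALDH3A2, and in 6.34% of all promoters. No match was found in these windows for TATAAA (10.7% of all promoters) or for TGACNNNGC, the core of the antioxidant response element (10.9%). The sterol regulatory element was searched in 1 strict form only, which 0.125% of all promoters have, and it had no match either. A form this rare would be missing from 10 windows in nearly any set of genes, so no conclusion is drawn from its absence. Looser forms of this element were not tested. Both strands were searched, no match in these genes overlapped one of another motif, and a match describes letters, not binding.

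The checks of the samples came out as follows. PIKFYVE was at 100.7 and 97.5 CPM with sgNC and at 10.9 and 12.5 CPM with sgPIKFYVE_1, a log2 fold change of -2.98 (SE 0.098, adjusted p = 1.22e-14). Depth was estimated at 9.30 to 13.6 M reads per sample, at which 3 reads amount to 0.227 to 0.329 CPM, for counting error alone. Of 11 neuroendocrine marker genes, 10 had a mean of at least 1 CPM in both tables (NEUROD1 did not), and their summed level moved with the groups. It was 7852 and 8190 CPM with sgNC and 6818 and 7054 with sgPIKFYVE_1. In the drug table it was 7908 and 7895 CPM with DMSO, 7033 and 6887 with apilimod and 9804 and 10082.5 with Torin1. Among them, CHGB was at 2477 and 2586 CPM with sgNC and 1555 and 1619 with sgPIKFYVE_1, and INSM1 at 131 and 139 with DMSO, 110.4 and 111 with apilimod and 237 and 249 with Torin1. The part of these markers in the results was not tested. Markers of fibroblasts, immune cells, endothelium and hepatocytes each summed to at most 10.1 CPM in any sample, with COL3A1, LUM and CD3E at 0 throughout. Markers of acinar cells summed to at most 0.438 CPM in the knockdown table. In the drug table they summed to 5.34 to 17.97 CPM, nearly all from PRSS1, which was at 5.65 and 5.34 CPM with DMSO, 14.9 and 13.2 with apilimod and 11.9 and 17.97 with Torin1, while CPA1 and CELA3A were at 0. Its part in the results with the drugs was not tested. In bulk RNA, fewer cells of a kind and less RNA per cell cannot be told apart.

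Levels were compared between genes per kilobase of the principal GENCODE transcript. In DMSO, ALDH3A2 came first at 60.5 CPM per kb, just above ALDH1A1 at 57.7, and ALDH9A1 followed at 40.1. ALDH7A1 (16.6) and ALDH1B1 (8.64) were intermediate. ALDH6A1 (3.52) and ALDH4A1 (3.31) overlapped between their samples, and ALDH2 was lowest of the tested genes at 0.495. The order with sgNC was the same, from ALDH3A2 at 62.6 CPM per kb and ALDH1A1 at 47.8 down to ALDH2 at 0.545, with no overlap between neighbours.

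With sgPIKFYVE_1, ALDH1A1 moved to first place at 105 CPM per kb, above ALDH3A2 at 61.2, and ALDH1B1 passed ALDH7A1, at 16.01 against 9.27. With apilimod, ALDH1A1 (57.1) was ahead of ALDH3A2 (53.2) and ALDH1B1 (14.998) ahead of ALDH7A1 (14.3). With Torin1, ALDH1A1 was at 32.2 CPM per kb, behind ALDH3A2 (49.2) and ALDH9A1 (42.6), and ALDH1B1 (3.14) was below ALDH6A1 (4.88) and overlapped ALDH4A1 (2.56). The order depends in part on the length used. With the joint length of all annotated exons, ALDH1A1 was first in DMSO and ALDH9A1 first with Torin1, and ALDH1B1 was above ALDH7A1 in DMSO and with sgNC.

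**Figure D1:**
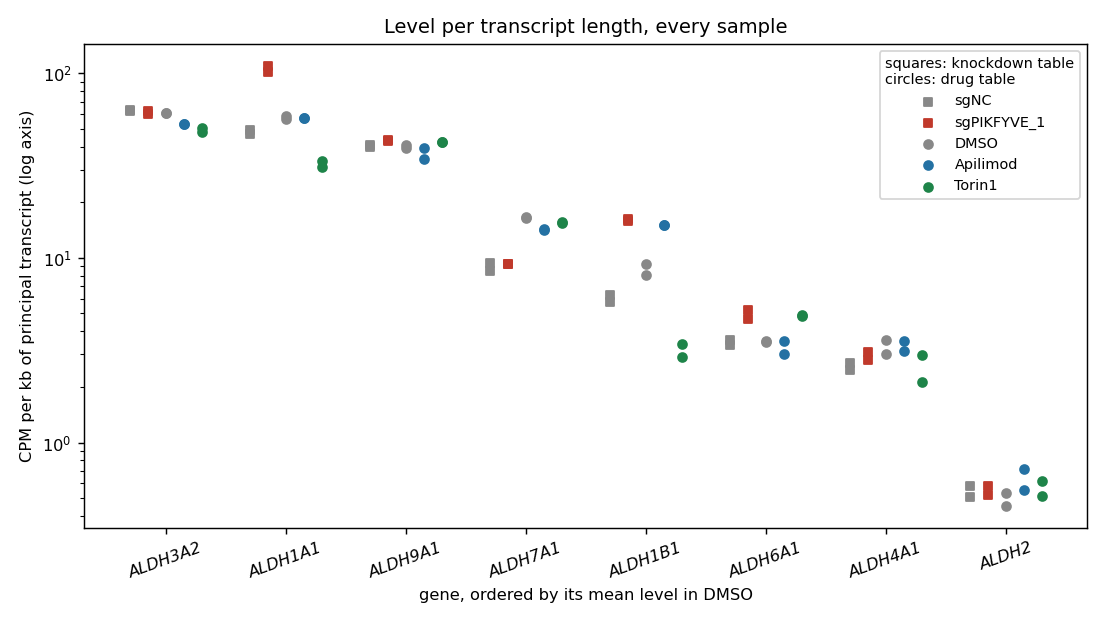
Level of each gene in CPM per kilobase of its principal transcript (y axis, logarithmic), with 1 point per sample, squares for the knockdown table and circles for the drug table, and genes ordered by their DMSO mean. ALDH1A1 spans 32.2 with Torin1 to 105 with sgPIKFYVE_1 and ALDH1B1 3.14 to 16.01, while ALDH2 stays between 0.495 and 0.634 in all 5 groups (means, with the tables normalized separately).

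ALDH1A1 rose with the PIKFYVE guide, did not pass the test with apilimod and fell with Torin1. The gene (ENSG00000165092.13) lies on chromosome 9 from 72900662 to 73080442 on the reverse strand of GRCh38. With sgNC its samples were at 98.02 and 103 CPM, and with sgPIKFYVE_1 at 214 and 230 CPM. Each knockdown sample was above each control sample, and the means of 222 ± 11.4 and 101 ± 3.67 CPM (SD, n = 2 each) stood in a ratio of 2.21. The log2 fold change, computed here and throughout on log2(CPM + 1) with limma, was 1.14 (SE 0.058, 95% interval 1.01 to 1.26, adjusted p = 1.15e-11). It ranked 143 from the highest of 13591 genes tested.

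In the drug table ALDH1A1 was at 124 and 119 CPM with DMSO, at 121 and 120 CPM with apilimod and at 65.4 and 70.3 CPM with Torin1. The apilimod samples lay within the range of the DMSO samples, and both Torin1 samples lay far below it. The difference between apilimod and DMSO was -0.01 on the log2 scale, with a 95% interval of -0.15 to 0.13 (adjusted p = 0.939). That interval does not reach the value of the knockdown, but the 2 contrasts come from separately normalized tables and their difference was not tested. With Torin1 the change was -0.83 (SE 0.065, 95% interval -0.97 to -0.69, adjusted p = 3.98e-07), a ratio of means of 0.558. Apilimod and Torin1, which share their DMSO samples, were also compared directly, and ALDH1A1 was higher with apilimod by 0.82 (SE 0.065, adjusted p = 2.34e-07).

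ALDH1A3, which also oxidizes retinal (ENSG00000184254.17, chromosome 15, 100877714 to 100916626, forward strand), was at or near 0. Its values were 0 and 0.0873 CPM with sgNC, 0.219 and 0 CPM with sgPIKFYVE_1, and 0 in all 6 samples of the drug table. These are below the 3 reads that set the limit in each sample, so no fold change is given.

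ALDH1B1 passed the test in every comparison, upward in the knockdown and with apilimod and downward with Torin1. It lies on chromosome 9 (ENSG00000137124.8, 38392664 to 38398661, forward strand). Its samples were at 17.7 and 19.3 CPM with sgNC and 49.6 and 48.6 CPM with sgPIKFYVE_1. The groups were far apart, and the log2 fold change was 1.36 (SE 0.1003, 95% interval 1.15 to 1.57, adjusted p = 2.16e-09), a ratio of means of 2.65 and rank 79 from the highest.

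With DMSO, ALDH1B1 was at 28.3 and 24.7 CPM. With apilimod it was at 45.9 and 46.0 CPM, and with Torin1 at 8.85 and 10.4 CPM. No sample of a drug group overlapped those of DMSO, which lay between them. The change was 0.78 with apilimod (SE 0.117, 95% interval 0.53 to 1.03, adjusted p = 5.53e-04). With Torin1 it was -1.37 (SE 0.117, 95% interval -1.62 to -1.12, adjusted p = 9.17e-07), rank 44 from the lowest of 13520 genes tested. Directly compared, the mean with apilimod was 4.78 times that with Torin1 (log2 fold change 2.15, SE 0.117, adjusted p = 4.37e-09).

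ALDH2, its close relative on chromosome 12 (ENSG00000111275.13, 111766887 to 111817529, forward strand), stayed between 4.36 and 6.87 CPM in all 10 samples. Its groups overlapped in the knockdown, where the log2 fold change was 0.01 with a 95% interval of -0.42 to 0.44 (adjusted p = 0.963). With apilimod the value was 0.29 (-0.12 to 0.71, adjusted p = 0.426) and with Torin1 0.17 (-0.25 to 0.58, adjusted p = 0.532). With the drugs the intervals leave room for changes of the size seen for ALDH6A1 with Torin1.

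**Figure D2:**
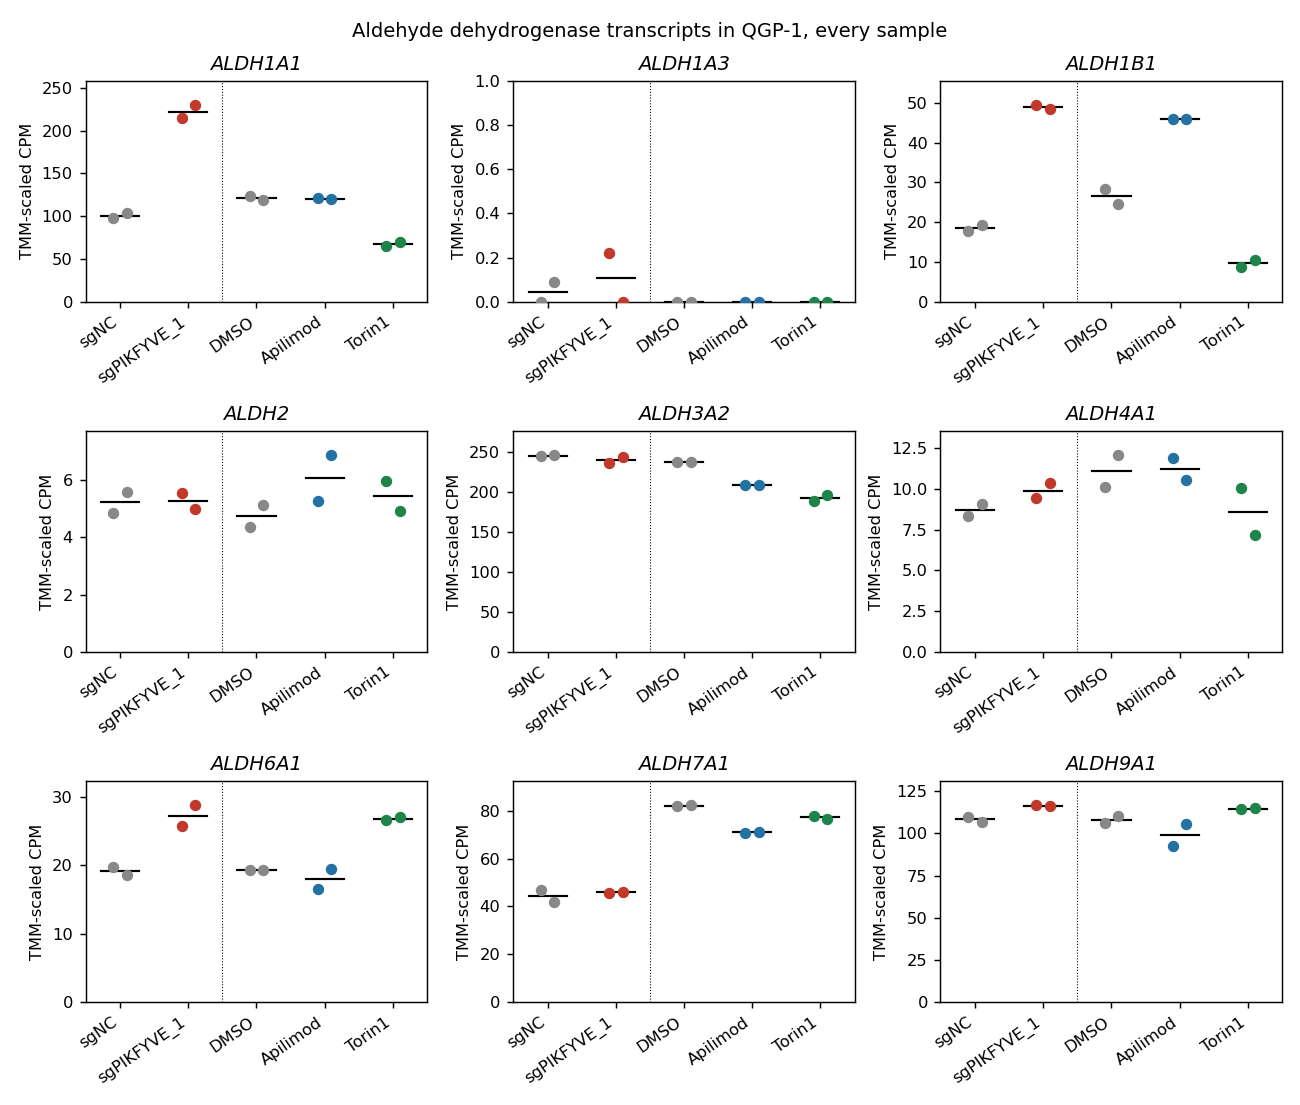
TMM-scaled CPM of each of the 9 genes in every sample, 1 panel per gene on its own linear axis from 0, with points for the 2 samples of a group, a bar for their mean and a dotted line between the separately normalized tables. ALDH1A1 and ALDH1B1 were above sgNC with sgPIKFYVE_1 and below DMSO with Torin1, and ALDH1A3 reached at most 0.219 CPM.

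ALDH6A1 rose in the knockdown and with Torin1 and did not pass the test with apilimod. It encodes methylmalonate-semialdehyde dehydrogenase of valine and pyrimidine breakdown, and lies on chromosome 14 (ENSG00000119711.12, 74056850 to 74084493, reverse strand). It was at 19.8 and 18.5 CPM with sgNC and at 25.8 and 28.9 CPM with sgPIKFYVE_1. The groups did not overlap, and the log2 fold change was 0.49 (SE 0.115, 95% interval 0.25 to 0.73, adjusted p = 0.00206).

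In the drug table ALDH6A1 was at 19.4 and 19.3 CPM with DMSO, at 16.6 and 19.5 CPM with apilimod and at 26.6 and 27.1 CPM with Torin1. Apilimod overlapped DMSO (-0.10, 95% interval -0.35 to 0.14, adjusted p = 0.689), and Torin1 was above it in both samples (0.45, SE 0.115, 95% interval 0.21 to 0.70, adjusted p = 0.00683). Between the drugs, apilimod minus Torin1, the difference was -0.55 (SE 0.115, adjusted p = 0.00129). The gene on its opposite strand, BBOF1, had a mean of at most 0.566 CPM in either table.

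ALDH3A2, the fatty aldehyde dehydrogenase, was lower with both drugs. It lies on chromosome 17 (ENSG00000072210.18, 19648136 to 19677598, forward strand). Its samples were at 245 and 247 CPM with sgNC and 237 and 244 CPM with sgPIKFYVE_1, which did not overlap but differed by -0.03 on the log2 scale (95% interval -0.13 to 0.07, adjusted p = 0.616). They were at 237.5 and 237.8 CPM with DMSO, 209 and 208 with apilimod and 189 and 197 with Torin1.

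With Torin1, ALDH3A2 changed by -0.30 (SE 0.051, 95% interval -0.41 to -0.19, adjusted p = 4.12e-04), and the mean was 0.813 of that of DMSO. With apilimod it changed by -0.19 (SE 0.051, 95% interval -0.29 to -0.08, adjusted p = 0.0356), a call that was lost without either DMSO sample (adjusted p = 0.217 without replicate 1 and 0.228 without replicate 2) or without either apilimod sample (0.126 and 0.119). The 2 drugs did not differ past the threshold for this gene (0.11, adjusted p = 0.0840).

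ALDH4A1, which completes the conversion of proline to glutamate, lies on chromosome 1 (ENSG00000159423.17, 18871430 to 18902781, reverse strand). It was at 8.35 and 9.08 CPM with sgNC and 9.43 and 10.4 with sgPIKFYVE_1 (0.16, 95% interval -0.18 to 0.51, adjusted p = 0.456). It was at 10.1 and 12.1 CPM with DMSO, 11.9 and 10.6 with apilimod (0.02, adjusted p = 0.972) and 10.1 and 7.16 with Torin1 (-0.35, 95% interval -0.71 to 0.02, adjusted p = 0.127). The Torin1 samples were apart from each other. Without the first of them the Torin1 value became -0.57 and passed the test (adjusted p = 0.0347), as did the difference between the drugs, which was 0.37 (adjusted p = 0.0947) with all samples and 0.59 (adjusted p = 0.0233) without it.

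ALDH7A1, or antiquitin, oxidizes the semialdehyde formed in lysine breakdown and lies on chromosome 5 (ENSG00000164904.18, 126531200 to 126595418, reverse strand). It was at 46.8 and 41.9 CPM with sgNC and 45.8 and 46.2 with sgPIKFYVE_1, which overlapped (0.05, 95% interval -0.13 to 0.23, adjusted p = 0.653). With DMSO it was at 81.9 and 82.5 CPM, with apilimod at 70.6 and 71.4 (-0.21, 95% interval -0.35 to -0.07, adjusted p = 0.0720) and with Torin1 at 77.9 and 76.8 (-0.09, adjusted p = 0.329). Each drug group was below DMSO without overlap, but neither difference passed the test. Its 4 listed pseudogenes were at 0 in all samples.

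ALDH9A1, the trimethylaminobutyraldehyde dehydrogenase of carnitine synthesis, lies on chromosome 1 (ENSG00000143149.12, 165662216 to 165698863, reverse strand). It was at 110 and 107 CPM with sgNC and 117 and 116 with sgPIKFYVE_1, apart but not past the test (0.10, 95% interval -0.02 to 0.23, adjusted p = 0.181). With DMSO it was at 106 and 110 CPM, with apilimod at 92.6 and 105 (-0.13, 95% interval -0.28 to 0.02, adjusted p = 0.322) and with Torin1 at 114.6 and 114.9 (0.09, 95% interval -0.07 to 0.24, adjusted p = 0.367). Between the drugs the difference was -0.21 (SE 0.070, adjusted p = 0.0222). That call was lost without the first apilimod sample, the lower of the pair (-0.12, adjusted p = 0.224), and without the first (adjusted p = 0.0612) or second (0.0633) Torin1 sample.

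Counted over the 8 tested genes, 3 rose and none fell in the knockdown (by limma, and none at an unadjusted p under 0.05 either), where 42.5% of all genes tested passed the test (21.6% higher and 20.9% lower). With apilimod 1 gene rose and 1 fell, against 8.54% of all genes (5.75% higher and 2.79% lower, or 778 and 377 genes, which became 658 and 536 with quantile normalization). With Torin1 1 rose and 3 fell, against 38.5% (16.6% and 21.8%). Between apilimod and Torin1, 2 were higher and 2 lower, against 46.7% (26.2% and 20.5%, or 3547 and 2765 genes, which became 3009 and 3232 with quantile normalization). The shares of the 8 genes in the knockdown and with Torin1 were near those of all genes.

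Groups did not overlap for 6 of the 8 genes in the knockdown, against 70.6% of all genes tested, and for 5 with apilimod against 50.7%. They did not overlap for 7 with Torin1 against 69.3%, and for 7 between the drugs against 72.5%. The median log2 fold change of the 8 genes was 0.13 in the knockdown, -0.06 with apilimod and -0.19 with Torin1, beside -0.0042, -0.0057 and -0.012 over all genes.

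**Figure D3:**
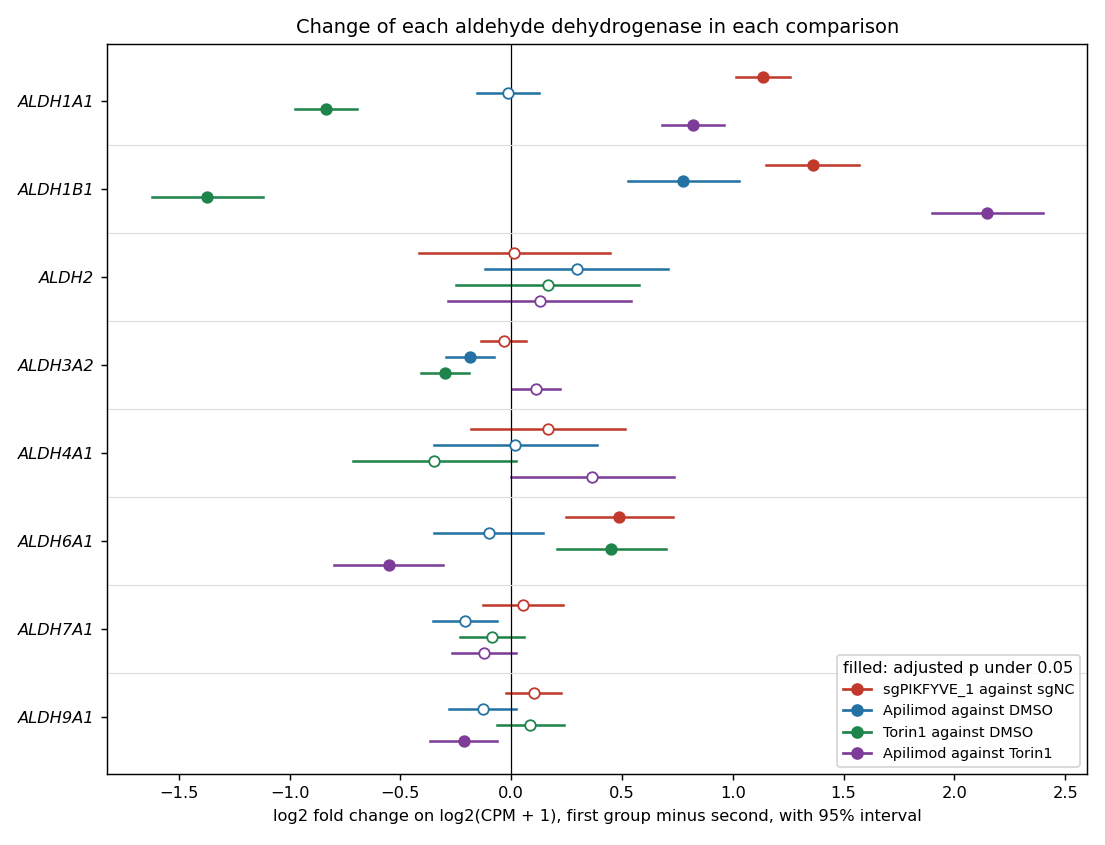
Log2 fold change on log2(CPM + 1) of the 8 tested genes (x axis) with its 95% interval as a line, 1 colour per comparison, filled points where the adjusted p from limma was under 0.05. ALDH1B1 is filled in all 4 comparisons, from -1.37 with Torin1 to 2.15 between the drugs, and ALDH2, ALDH4A1 and ALDH7A1 in none.

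Some genes outside the family followed ALDH1A1 closely over the 10 samples, each taken on the log2 scale relative to the control mean of its own table. The 5 with the highest Pearson correlation among 13235 genes were CENPW, a centromere protein (0.998), WDR3, a ribosome biogenesis factor (0.996), NDUFA4, a respiratory chain subunit (0.995), LSM3, an RNA-binding protein of the spliceosome (0.995), and TUBB, a tubulin (0.994). Their changes had the same order as those of ALDH1A1. CENPW, for example, was at 0.88 in the knockdown, -0.05 with apilimod and -0.72 with Torin1. ALDH1B1 was at place 1039 with a correlation of 0.913. The points share libraries and control samples, so these values only describe likeness.

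Of the 10 other aldehyde dehydrogenases, 8 were tested in the knockdown and 7 with the drugs. 2 rose in the knockdown and none fell, beside the 42.5% of all genes that passed there (21.6% higher and 20.9% lower). In this list and the next 5, each count of none by limma was also 0 at an unadjusted p under 0.05, except for the genes lower with apilimod here (2) and in the retinoic acid list (1), higher with apilimod in the fatty aldehyde list (1) and lower between the drugs in the carbonyl list (1). ALDH3B2, which acts on lipid-derived aldehydes, was at 7.70 and 6.99 CPM with sgNC and 18.1 and 15.3 with sgPIKFYVE_1, well apart (1.08, adjusted p = 1.80e-05). ALDH1L2, the mitochondrial formyltetrahydrofolate dehydrogenase, was at 13.2 and 10.1 CPM with sgNC and 16.9 and 20.6 with sgPIKFYVE_1 (0.65, adjusted p = 0.00210), a call lost when the 1 CPM minimum or the variance trend was dropped.

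With apilimod, ALDH3B2 was the 1 gene of this list that passed, from 1.45 and 1.16 to 3.78 and 3.85 CPM (1.07, adjusted p = 0.0111), and no gene of the list passed without the second DMSO sample or without either apilimod sample. Over all genes, 8.54% passed with apilimod. With Torin1, 3 fell and none rose, beside 38.5% of all genes (16.6% higher and 21.8% lower). ALDH1L2 changed by -0.60 (adjusted p = 0.00121), ALDH18A1, which starts proline synthesis, by -0.45 (1.74e-04) and ALDH16A1 by -0.28 (0.0341), a call lost without either DMSO sample or the second Torin1 sample. Between the drugs, 3 were higher with apilimod, ALDH3B2, ALDH1L2 and ALDH18A1, and ALDH5A1 of GABA breakdown was lower (-0.40, adjusted p = 0.0111). Over all genes, 46.7% passed between the drugs (26.2% higher and 20.5% lower with apilimod).

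Of 29 genes around retinoic acid, the product of ALDH1A1, 16 were tested in the knockdown, where 3 rose and 4 fell, beside 42.5% of all genes (21.6% higher and 20.9% lower). CRABP2, which carries retinoic acid to its receptors, fell from 13.3 and 11.8 CPM to 4.06 and 2.91 (-1.60, adjusted p = 2.10e-06). RARA, a retinoic acid receptor, fell from 47.5 and 44.4 CPM to 21.8 and 17.2 (-1.21, adjusted p = 6.79e-08), and CYP26B1, which degrades retinoic acid, from 6.12 and 5.50 to 2.52 and 2.70 (-0.92, adjusted p = 0.00267). FABP5 also fell, while RDH10, DHRS3 and RDH11 of the retinol and retinal steps rose, RDH10 not passing without the second sgPIKFYVE_1 sample.

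With apilimod, 1 of 15 tested genes of this list passed, beside 8.54% of all genes. RDH11, a retinal reductase, went from 108 and 106 CPM to 184 and 189 (0.79, adjusted p = 8.35e-07). With Torin1, where 38.5% of all genes passed, RDH11 fell (-0.60, adjusted p = 4.69e-06), as did FABP5 (-0.71, adjusted p = 4.50e-06). CYP26B1 rose with Torin1 from 3.80 and 2.74 CPM to 10.4 and 5.52 (1.03, adjusted p = 0.00696). The CYP26B1 call was lost without the second DMSO or the first Torin1 sample, and without the variance trend 6 genes of the list passed. The median over the list was 0.13 in the knockdown, 0.13 with apilimod and -0.02 with Torin1.

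Among 20 other enzymes that clear carbonyl compounds, 13 were tested in the knockdown and 14 with the drugs. In the knockdown 5 rose and none fell, beside 42.5% of all genes (21.6% higher and 20.9% lower). The rises were led by AKR1B1, the aldose reductase (0.45, adjusted p = 6.80e-05), AKR1C1 (0.43, adjusted p = 1.95e-04) and CBR1, a carbonyl reductase (0.40, adjusted p = 4.24e-04). Of the paralogs of AKR1C1, AKR1C2 was at -0.07 (adjusted p = 0.314) and AKR1C3 at -0.09 (adjusted p = 0.136) in the knockdown. The part of reads shared between paralogs in the AKR1C1 call was not tested. The 5 calls became 3 without the variance trend, which dropped AKR1A1 and GLO1. With Torin1 1 rose and 8 fell, beside 38.5% of all genes (16.6% higher and 21.8% lower), and the median was -0.45. DCXR, a xylulose reductase, fell from 41.5 and 44.4 to 19.5 and 15.7 CPM (-1.25, adjusted p = 1.12e-06). AKR1C2 changed by -1.15 (adjusted p = 1.94e-09) and AKR1C1 by -0.82 (adjusted p = 4.08e-06), though these near-identical paralogs may share reads.

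With apilimod, where 8.54% of all genes passed (5.75% higher and 2.79% lower), GLO1, the glyoxalase of methylglyoxal, was higher (0.30, adjusted p = 0.0264) and AKR1C3 lower (-0.18, adjusted p = 0.0449). No gene of the list passed without either DMSO sample or without the second apilimod sample, and 1, GLO1, passed without the first apilimod sample. Between the drugs, 10 of the 14 were higher with apilimod and none lower, beside 46.7% of all genes (26.2% higher and 20.5% lower). DCXR was at 1.51 (adjusted p = 8.42e-08).

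The pathways that feed ALDH4A1, ALDH6A1 and ALDH7A1 were taken as 28 genes of branched-chain amino acid, lysine and proline breakdown, 26 of them tested. In the knockdown 11 rose and 4 fell, beside 42.5% of all genes (21.6% higher and 20.9% lower). BCAT1, the cytosolic branched-chain aminotransferase, rose from 17.1 and 16.1 CPM to 45.5 and 51.6 (1.49, adjusted p = 1.34e-09), and BCAT2, its mitochondrial counterpart, by 0.68 (adjusted p = 6.70e-05). HOGA1 of hydroxyproline breakdown, counted among the 11, had a mean of 0.746 CPM with sgNC and 2.37 with sgPIKFYVE_1. It met the 1 CPM minimum through the knockdown samples alone, and its call (adjusted p = 0.0205) was lost without the filter and without the second sgNC or second sgPIKFYVE_1 sample.

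With Torin1, 3 genes of this list rose and 8 fell, beside 38.5% of all genes (16.6% higher and 21.8% lower). BCAT1 went down from 61.0 and 61.4 CPM to 22.6 and 24.4 (-1.34, adjusted p = 5.40e-08). The hydratase ECHS1 was at -0.59 (adjusted p = 1.07e-05) and BCAT2 at -0.52 (adjusted p = 0.00148). The 11 calls became 5 to 7 when any single DMSO or Torin1 sample was left out. With apilimod MCCC1, of leucine breakdown, was the 1 gene of the 26 that passed (0.52, adjusted p = 0.00253), beside 8.54% of all genes. Without the second apilimod sample 2 genes passed.

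Around ALDH9A1, 8 of 14 genes of betaine, carnitine and polyamine metabolism were tested. In the knockdown 4 passed as lower and none as higher, beside 42.5% of all genes (21.6% higher and 20.9% lower), with a list median of -0.55. SAT1, which acetylates polyamines, fell from 197 and 196 CPM to 122 and 127 (-0.65, adjusted p = 1.20e-08), and SMOX, the spermine oxidase, from 14.6 and 14.4 to 8.44 and 6.90 (-0.84, adjusted p = 3.23e-04). PAOX was at -0.61 (adjusted p = 0.04999) and lost its call in 7 of 9 alternatives, which left SAT1, SMOX and SLC22A5. With Torin1, where 38.5% of all genes passed (16.6% higher and 21.8% lower), SAT1 rose from 85.6 and 81.3 CPM to 130 and 134 (0.66, adjusted p = 3.28e-06). The carnitine transporter SLC22A5 also rose (0.40, adjusted p = 0.0127). These 2 Torin1 calls became 1 without the second DMSO or the first Torin1 sample and 4 without the second Torin1 sample. No gene of this list passed the limma test with apilimod, beside 8.54% of all genes.

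Around ALDH3A2, 8 of 9 genes of fatty aldehyde metabolism were tested. Over all genes, 42.5% passed in the knockdown (21.6% higher and 20.9% lower) and 8.54% with apilimod. In the knockdown SGPL1, the sphingosine phosphate lyase that yields a fatty aldehyde (0.32, adjusted p = 6.47e-04), and PHYH of phytanic acid oxidation (0.32, adjusted p = 0.0418) passed, both higher. The call of PHYH was lost without either sgNC sample, without the second sgPIKFYVE_1 sample, without the filter, with quantile normalization and without the variance trend, and that of SGPL1 was kept in each of these. HACL1, which releases an aldehyde from 2-hydroxy fatty acids in peroxisomes, fell with apilimod from 18.1 and 20.6 CPM to 11.4 and 12.5 (-0.65, adjusted p = 0.00291). That list had no call without the second DMSO sample and 2 without the first apilimod sample.

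Over all genes, 38.5% passed with Torin1 (16.6% higher and 21.8% lower) and 46.7% between the drugs (26.2% and 20.5%). With Torin1, HACL1 rose and 4 genes of this list fell. The falls were led by SPHK2 (-0.52, adjusted p = 9.77e-04), FAR1, which makes fatty alcohols (-0.41, adjusted p = 5.27e-04), and PECR (-0.38, adjusted p = 0.0453). The 5 calls became 3 when any single DMSO or Torin1 sample was left out, HACL1 and PECR being lost each time. Between the drugs 4 genes of the list were higher with apilimod, and HACL1 was higher with Torin1 (-0.99, adjusted p = 1.52e-05), and these 5 calls became 3 without the second apilimod sample.

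**Figure D4:**
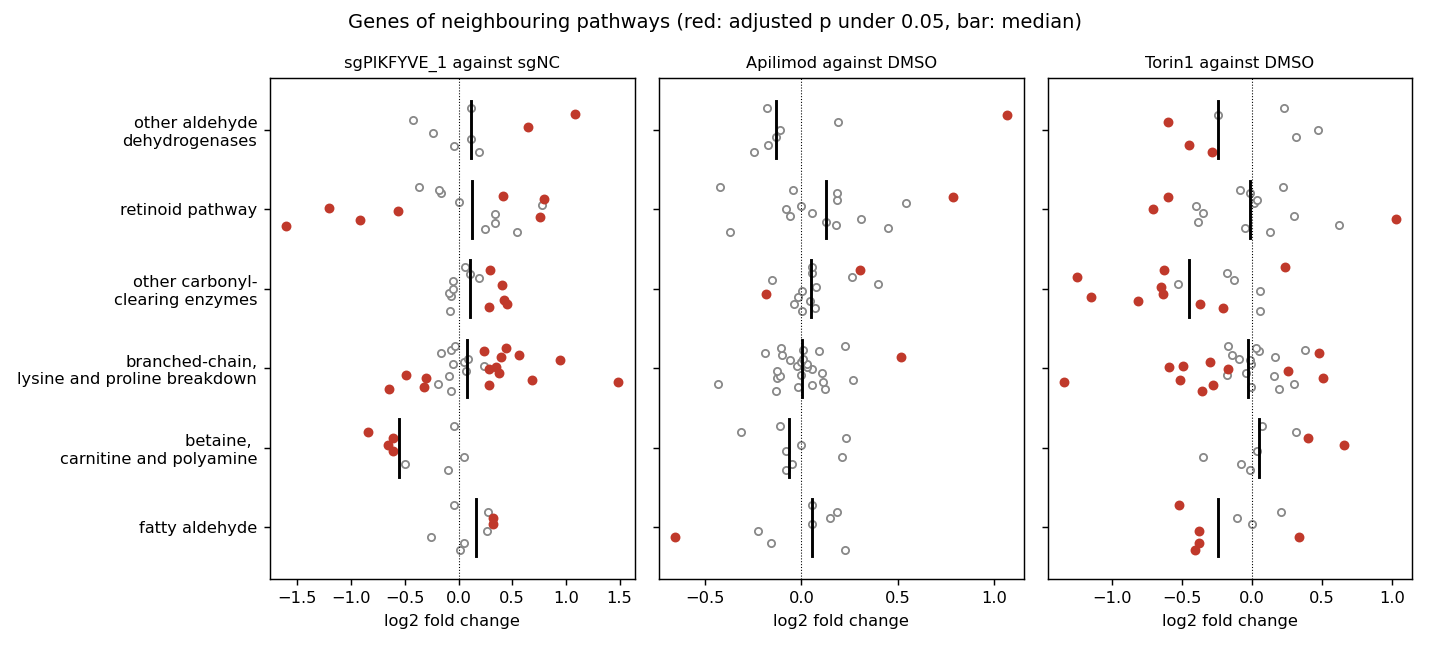
Log2 fold change (x axis) of every tested gene of the 6 neighbouring lists in the knockdown, with apilimod and with Torin1, each panel on its own axis, with a black bar at the list median and red points where the adjusted p was under 0.05. The carbonyl-clearing list has its median at -0.45 with Torin1 and the betaine, carnitine and polyamine list at -0.55 in the knockdown.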

How the data were processed

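RNA-seq libraries of 10 QGP-1 samples were analysed from 2 tables. The labels describe depletion of ribosomal RNA and the methods of the study oligo(dT) selection. The authors demultiplexed reads with bcl2fastq 2.20, checked them with FastQC, trimmed them with Trimmomatic and summed transcript estimates to genes, on build hg38 per the labels; the quantifier and annotation are not given in the sources used here. The deposited values are a signal on the CPM scale, which the authors scaled with TMM factors from edgeR in each table separately, and they tested genes with DESeq2. Samples sum to 972493 to 1024332, so they are not plain CPM as the design assumed. Of low values, up to 20 reads, 67.4% to 70.8% were whole within 0.02 of a read, too few to recover counts. The limit of 3 reads covers counting error, and the 95% intervals are those of the limma fit.

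A gene entered the test where it averaged 1 CPM or more in its table. Values were taken as log2(CPM + 1), which makes changes of weakly expressed genes look smaller than they were. Linear models (lmFit, then eBayes with trend) were fitted in limma 3.58.1 under R 4.3.3 to the 4 knockdown samples and, in another fit, to the 6 drug samples. Adjusted p-values are by Benjamini-Hochberg across every gene in the fit, called under 0.05. Replicates differed by more than sampling noise. Named genes were the 9 family genes, PIKFYVE, up to 3 genes per list and comparison with the highest absolute log2 fold change among those past the test, the 5 most like ALDH1A1, and markers; other names complete small counts and were chosen after their values were seen. The members and lists were chosen with earlier results of these data known. Positions and lengths are from GENCODE release 29 (GRCh38), in which 3 of the 9 gene IDs have the same version. As alternatives, each on its own, the pseudocount was set to 0.1, the filter or the variance trend was dropped, values were quantile normalized, the replicate number was added as a block, the drug fit was cut to the groups compared, and each sample of the groups compared was left out. The procedure was tested on simulated data. Figures were drawn with matplotlib 3.10.9.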

Additional observations from a re-analysis of the deposited data

How the results depend on the processing

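Each result was recomputed with a pseudocount of 0.1, without the filter on low values, with quantile normalization, with a replicate block, without the variance trend, with the compared groups alone (drug table) and without each sample of the compared groups in turn. Single samples of the drug group outside a comparison were not left out. The loss of PIKFYVE in the knockdown held in all 9 alternatives (-3.08 to -2.89). In the knockdown, no call was lost or gained over 72 recomputed values of the 8 genes, with ALDH1A1 between 1.08 and 1.19, ALDH1B1 between 1.30 and 1.42 and ALDH6A1 between 0.41 and 0.57. With Torin1, 79 of 80 values kept their side of the threshold, ALDH4A1 without 1 sample being the exception. The 2 calls with apilimod became 1 without the filter and without the variance trend, ALDH3A2 being the gene lost. The ALDH3A2 call was also lost without any single DMSO or apilimod sample. Its log2 fold change with a sample left out was -0.19 to -0.18, beside -0.19 with all samples. ALDH7A1 passed with apilimod after quantile normalization (adjusted p = 0.0420). Between the drugs, ALDH9A1 was lost without the filter (adjusted p = 0.0621) and without the variance trend (0.0999), and ALDH7A1 passed after quantile normalization (0.0185). Over all genes, the 5772 calls of the knockdown fell to 3709 without the variance trend. The 1155 calls with apilimod fell to 565 without the filter, 466 without the variance trend and 597 to 835 with a sample left out.

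Samples with the same replicate number deviated together only weakly over all genes tested (correlation 0.0370 for the knockdown pair of groups and 0.0426 to 0.104 in the drug table). The numbers were not taken as pairs in the main fit, and a deviation shared by part of the genes was not tested. With the replicate block, the calls over all genes went from 5772 to 6111 in the knockdown, from 1155 to 1756 with apilimod and from 5202 to 5903 with Torin1. Of the 8 genes, 3 passed in the knockdown, 3 with apilimod (ALDH7A1 added, adjusted p = 0.0276), 4 with Torin1 and 5 between the drugs (ALDH3A2 added, 0.0344) under the block.

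Depth limits ALDH1A3, which lies under 3 reads.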
